A study of Mus musculus with 6 samples.

Results

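The 8 genes described here encode the machinery that carries folded enzymes into the peroxisome matrix, and they were chosen by name: Pex2, Pex5, Pex6, Pex7, Pex10, Pex13, Pex14 and Pex26. All 8 were found among the 26214 gene symbols of the deposited count files, and all 8 passed the filter on low counts that left 14709 genes for testing. Peroxisomes have no DNA and no ribosomes of their own, so each matrix enzyme is made in the cytosol and imported. Most enzymes end in a peroxisomal targeting signal of type 1 (PTS1), which the receptor PEX5 binds, and a few begin with a type 2 signal (PTS2), which PEX7 binds and brings to PEX5. The loaded receptor docks on PEX13 and PEX14 at the membrane, is tagged with ubiquitin by a RING finger ligase that includes PEX2 and PEX10, and is pulled back to the cytosol by an ATPase complex that includes PEX6 and that PEX26 anchors to the membrane. Brown fat is rich in peroxisomes, which shorten very long-chain fatty acids and make precursors of ether lipids.

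The cells were immortalized mouse brown preadipocytes, differentiated for 7 days in culture with insulin, T3, IBMX, dexamethasone and indomethacin, all of which both groups received. On day 7 they were given 100 nM rotenone, an inhibitor of complex I of the mitochondrial respiratory chain, or the solvent DMSO for 16 h. The labels give 3 independent replicates per group and do not say how many preadipocyte lines or clones were used. The 3 rotenone files held identical counts for every gene and were counted as 1 sample, so each comparison is of 3 DMSO libraries with 1 rotenone library, and p-values rest on the spread between the DMSO libraries, which may be technical.

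Total counts were 26085061 to 29194179 in the DMSO libraries and 21611589 in the rotenone library. Fat cell markers were abundant in all 4 libraries: the summed level of 11 markers was 9628 to 10739 CPM (counts scaled to library size with TMM factors) in DMSO and 8268 CPM with rotenone. Much of the sum was Fabp4, a fatty acid carrier, at 5121 CPM in DMSO on average and 5306 CPM with rotenone. Of the 10 tested, 8 fell, with a median log2 fold change of -1.06. Over all genes tested, 28.5% were called lower and 27.6% higher at an adjusted p under 0.05. With a coefficient of variation of 20% assumed, as described below, 5 of the 10 were called lower, beside 14.0% of all genes tested. The regulators Cebpa and Prdm16, the lipase gene Lipe and the uncoupling protein gene Ucp1 had log2 fold changes of -2.31, -2.13, -1.88 and -1.86. The thermogenic enzyme gene Dio2 was near 0 in every library. Of 11 tested markers of preadipocytes, fibroblasts and smooth muscle, 7 rose. Pdgfra was the 1 that fell (log2 fold change -1.11), and Ly6a, Cd34 and Dcn did not pass the threshold. The list summed to 1438 to 1615 CPM in DMSO and 4376 CPM with rotenone. In the rotenone library Col1a1 stood at 2121 CPM, Acta2 at 852 CPM and Tagln at 654 CPM. Of 6 macrophage markers, which summed to under 5 CPM in each DMSO library and 16.7 CPM with rotenone, Cd68 rose by 2.38 ± 0.23 on the log2 scale to 15.5 CPM, and Adgre1 and Ptprc had 0 counts in every library. In bulk RNA, fewer cells of a type and less RNA per cell cannot be told apart, and the part of these shifts in the results on peroxins was not tested.

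Among the 8 import genes 1 rose and 4 fell with rotenone at an adjusted p under 0.05 (edgeR's quasi-likelihood test, Benjamini-Hochberg over all genes tested). Pex14 rose 2.02-fold in CPM, Pex6 fell most (1.98-fold), Pex26, Pex13 and Pex5 fell by smaller amounts, and Pex2, Pex7 and Pex10 did not pass the threshold. Over all genes tested, 27.6% were called higher and 28.5% lower, so a count of 5 called among 8 is close to the overall 56.1%. The median log2 fold change of the 8 was -0.18, against -0.04 over all genes tested. The rotenone value lay outside the range of the DMSO libraries for 6 of the 8, above it for Pex14 and Pex10 and below it for the 4 that fell; over all genes tested this was so for 86.2%, above in 41.5% and below in 44.7%.

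The promoters of the genes that moved most in opposite directions, Pex14 and Pex6, and of Pex13, the docking partner of PEX14, are shown because they are the stretches from which these transcripts start. Each run is the 250 bases before the RefSeq start site on GRCm38.p6, read 5′ to 3′ on the strand of the gene, and capitals mark every match to a motif searched. RefSeq promoters were matched for 7 of the 8 genes.
Pex14 (chr4:149099844-149100093, minus strand): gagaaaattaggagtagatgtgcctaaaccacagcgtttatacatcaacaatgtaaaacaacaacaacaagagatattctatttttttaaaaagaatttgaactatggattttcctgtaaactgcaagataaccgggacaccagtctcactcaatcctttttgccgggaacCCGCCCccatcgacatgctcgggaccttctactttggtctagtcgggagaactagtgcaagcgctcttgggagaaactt
Pex13 (chr11:23665884-23666133, minus strand): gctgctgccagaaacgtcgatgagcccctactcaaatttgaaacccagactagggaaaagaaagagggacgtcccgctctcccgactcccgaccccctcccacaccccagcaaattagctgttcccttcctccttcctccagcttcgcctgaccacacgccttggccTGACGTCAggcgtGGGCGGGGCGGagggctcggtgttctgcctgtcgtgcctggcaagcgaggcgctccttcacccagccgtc
Pex6 (chr17:46711226-46711475, plus strand): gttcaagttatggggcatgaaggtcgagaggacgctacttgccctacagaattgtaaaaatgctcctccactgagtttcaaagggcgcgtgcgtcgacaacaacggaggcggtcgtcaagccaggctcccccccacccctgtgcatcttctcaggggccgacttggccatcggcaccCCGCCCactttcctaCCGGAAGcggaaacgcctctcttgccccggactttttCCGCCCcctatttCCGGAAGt

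Motifs were searched on both strands as the E-box CACGTG, the hypoxia response core ACGTG (which every E-box contains), the CRE core TGACGT, the CCAAT box CCAAT, the GC box GGGCGG, the ETS site CCGGAAG and the nuclear receptor site AGGTCA. The Pex14 window held 1 match, a GC box, a motif found in 32.7% of all 32851 RefSeq promoter windows of that length. In the Pex6 window there were 2 GC boxes and 2 ETS sites, and 6.91% of all windows hold an ETS site. The Pex13 window held 2 CRE cores that overlap on opposite strands and 2 GC boxes that overlap, and 6.47% of all windows hold a CRE core. No window of the 7 genes held a match to the nuclear receptor site, found in 14.0% of all windows, or to the E-box, found in 6.02%. These windows differ in composition as well, with 42.0% G and C for Pex14, 58.8% for Pex6 and 62.8% for Pex13, against a median of 52.4% over all windows. A match describes letters, and binding was not measured.

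The receptors came first in the import cycle. Pex5 encodes the receptor for PTS1 enzymes (chromosome 6, 124396816 to 124415067, minus strand, GRCm38, GENCODE M21). Its level was 113, 106 and 113 CPM in DMSO replicates 1, 2 and 3 and 88.3 CPM in the rotenone library, which lay below all 3. Pex5 fell by 0.32 ± 0.08 (log2 fold change ± SE; edgeR adjusted p = 0.0015), which is 1.25-fold in CPM. Pex7 encodes the PTS2 receptor (chromosome 10, 19853900 to 19907689, minus strand). It stood at 40.5, 37.0 and 39.8 CPM in DMSO and at 38.6 CPM with rotenone, inside the DMSO range. The log2 fold change of Pex7 was -0.02 ± 0.10 (edgeR adjusted p = 0.90), and its sign turned to 0.17 ± 0.09 with offsets for transcript length and GC content. The ratio of Pex5 to Pex7, each per kb of its longest transcript, was 7.20, 7.35 and 7.28 in DMSO and 5.88 with rotenone. All 3 DMSO ratios lay close together and above the rotenone ratio, but an exact permutation test of 1 library against 3 cannot give a p below 0.25, so these ratios are descriptions.

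**Figure D1:**
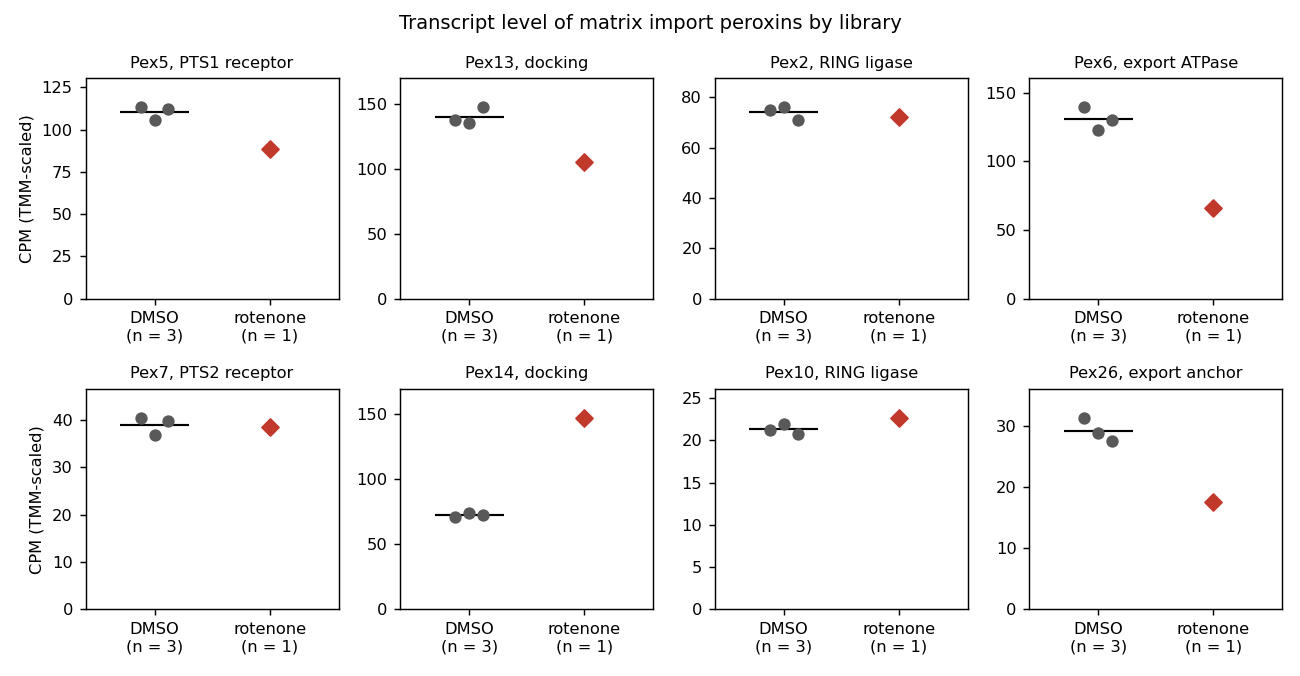
Level of each of the 8 import genes in CPM on TMM-scaled library sizes, with the 3 DMSO libraries as grey points, their mean as a line and the rotenone library as a red diamond. Pex14 stands at 147 CPM with rotenone against 70.9 to 74.2 CPM in DMSO, Pex6 at 66.1 against 123 to 140 CPM, and Pex2 and Pex7 lie inside their DMSO ranges.

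The docking partners moved in opposite directions. Pex14 encodes the membrane protein that receives the loaded receptor (chromosome 4, 148960535 to 149099876, minus strand). Its level was 70.9, 74.2 and 72.6 CPM in DMSO, the tightest of the 8 genes with an SD of 2.32% of the mean, and 147 CPM with rotenone. The rotenone value is 2.02 times the DMSO mean, and Pex14 rose by 1.02 ± 0.07 on the log2 scale (edgeR adjusted p = 6.0e-10). It was the only one of the 8 called with a rise of at least 2-fold, as were 5.53% of all genes tested, and 7.23% of all genes tested had a larger log2 fold change. An antisense gene, Gm17029, shares 1776 of the 6272 exon bases annotated for Pex14 (28.3%) on the opposite strand. It is not analysed here, and because the sources used here do not give the strand setting of the counting, reads of these genes cannot be told apart.

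Pex13 encodes the other docking protein, which holds PEX14 and PEX5 at the membrane (chromosome 11, 23646479 to 23665959, minus strand). It stood at 138, 136 and 148 CPM in DMSO and at 105 CPM with rotenone, below every DMSO library. Pex13 fell by 0.42 ± 0.08 on the log2 scale (edgeR adjusted p = 0.00012). Per kb of transcript, Pex14 was at 0.558, 0.594 and 0.533 times the level of Pex13 in DMSO and at 1.52 times with rotenone. With this length, the order of the docking genes was the reverse in the rotenone library of what it was in each DMSO library. The ratio was 2.70 times the DMSO mean. With the union of all exons as the length, the genes were nearly level with rotenone, at 23.4 CPM per kb for Pex14 and 22.6 for Pex13.

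The RING ligase genes listed here stayed near their DMSO levels. Pex2 encodes a RING finger subunit that attaches ubiquitin to the receptor (chromosome 3, 5560188 to 5576239, minus strand). It stood at 74.8, 76.1 and 71.2 CPM in DMSO and at 72.2 CPM with rotenone, inside that range, with a log2 fold change of -0.04 ± 0.08 (edgeR adjusted p = 0.72). Pex10 encodes a second subunit of the same ligase (chromosome 4, 155067016 to 155072433, plus strand). Its level of 22.7 CPM with rotenone lay just above the 21.2, 21.9 and 20.7 CPM of DMSO, with a log2 fold change of 0.09 ± 0.12 (edgeR adjusted p = 0.56) that turned to -0.03 ± 0.13 with scaling by library size only. For Pex10 the depth was 553 to 634 counts in the DMSO libraries and 460 in the rotenone library, and missing the threshold does not show that either gene was unaffected.

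The export genes fell. Pex6 encodes the ATPase that extracts the ubiquitin-tagged receptor from the membrane (chromosome 17, 46711463 to 46725541, plus strand). Its level was 140, 123 and 130 CPM in DMSO and 66.1 CPM with rotenone, 1.98-fold lower than the DMSO mean and below every DMSO library. Pex6 fell by 0.99 ± 0.09 on the log2 scale (edgeR adjusted p = 1.5e-08), and 15.6% of all genes tested had a lower log2 fold change. Pex26 encodes the membrane anchor of this ATPase (chromosome 6, 121183667 to 121198837, plus strand). It stood at 31.3, 28.8 and 27.5 CPM in DMSO and at 17.5 CPM with rotenone, again below all 3, and fell by 0.74 ± 0.13 (edgeR adjusted p = 6.6e-05). The ratio of Pex6 to Pex26 per kb was 5.39, 5.16 and 5.73 in DMSO and 4.57 with rotenone.

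With 1 rotenone library, the test takes its spread from the DMSO libraries, whose biological coefficient of variation was 6.9%. With 20% assumed instead, Pex14 (adjusted p = 0.010) and Pex6 (adjusted p = 0.030) were called by edgeR's likelihood ratio test, and Pex5, Pex13 and Pex26 were not (adjusted p = 0.54, 0.41 and 0.12). Under that assumption 9.57% of all genes tested were called higher and 14.0% lower, or 23.6% in all, beside 2 of the 8 import genes.

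**Figure D2:**
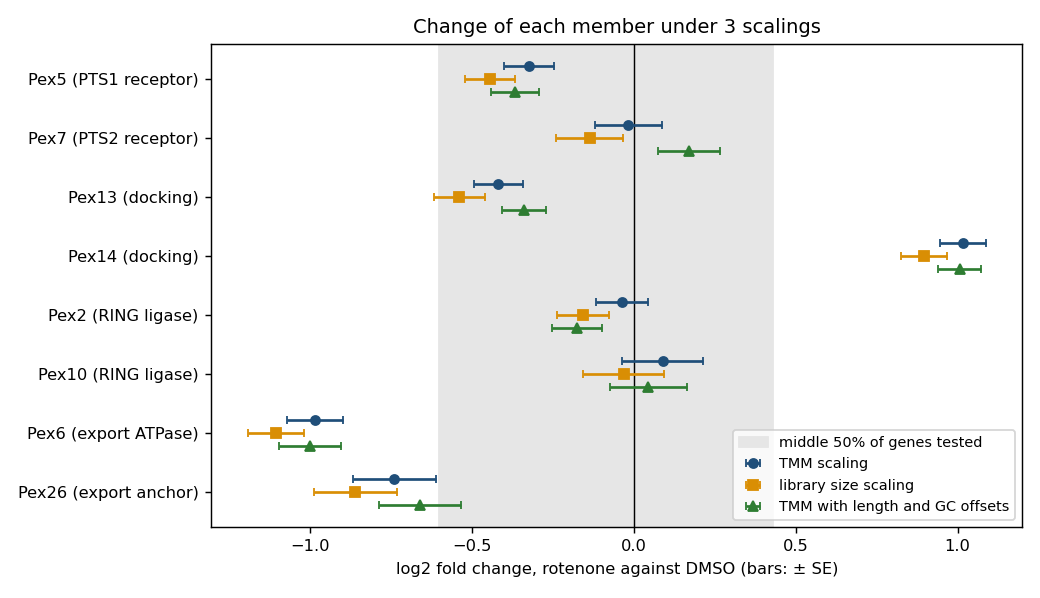
Log2 fold change of each import gene, rotenone against DMSO, with bars of 1 SE, under TMM scaling, scaling by library size only, and TMM with offsets for transcript length and GC content. The grey band holds the middle 50% of genes tested under TMM scaling (-0.60 to 0.43) and was not redrawn for the other scalings. Pex14 lies above it and Pex6 and Pex26 below it under each of the 3, whereas the sign of Pex7 and Pex10 depends on the scaling.

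Long transcripts were lower in general in the rotenone library, with a median log2 fold change of 0.24 in the shortest of 10 length classes of genes and -0.27 in the longest. For genes of the length and GC content of Pex14 and Pex6 this shift was 0.01 on the log2 scale in both cases, and with the offsets Pex14 rose by 1.01 ± 0.07 and Pex6 fell by 1.00 ± 0.10. The largest shift among the 8 was -0.19, for Pex7, whose longest annotated transcript has 8099 bases.

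Set side by side per kb of the longest transcript, the import genes formed a high and a low group in DMSO. Pex6 stood highest at 38.7 ± 2.5 CPM per kb (SD, n = 3), followed by Pex2 at 36.1 ± 1.2, Pex5 at 35.1 ± 1.4 and Pex13 at 33.9 ± 1.6. Neighbours in that group overlapped between libraries and are not separated by these data, and Pex13 and Pex5 changed places when the union of all exons was used as the length. Pex14 followed alone at 19.0 ± 0.4 CPM per kb, then Pex10 at 7.63 ± 0.22 and Pex26 at 7.13 ± 0.47, which overlapped, and Pex7 at 4.82 ± 0.23.

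In the rotenone library the order was different at the top. Pex14 was highest at 38.4 CPM per kb, above Pex2 at 35.2 (below it when the union of exons was the length), while Pex6 stood at 19.5, in the fifth place that Pex14 held in DMSO. As a share of the level of the 8 genes summed per kb of the longest transcript, Pex14 went from 10.4% ± 0.5 (SD, n = 3) to 23.5%. Pex6 went from 21.2% ± 1.0 to 11.9%. The size of these shares depends on the length used, which for Pex14 is 3819 bases by the longest transcript and 6272 by the union of exons. The 8 genes summed to 602 to 629 CPM in the DMSO libraries and to 557 CPM with rotenone, below that range. The lengths are those of the annotation, and which transcripts these cells make was not measured.

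**Figure D3:**
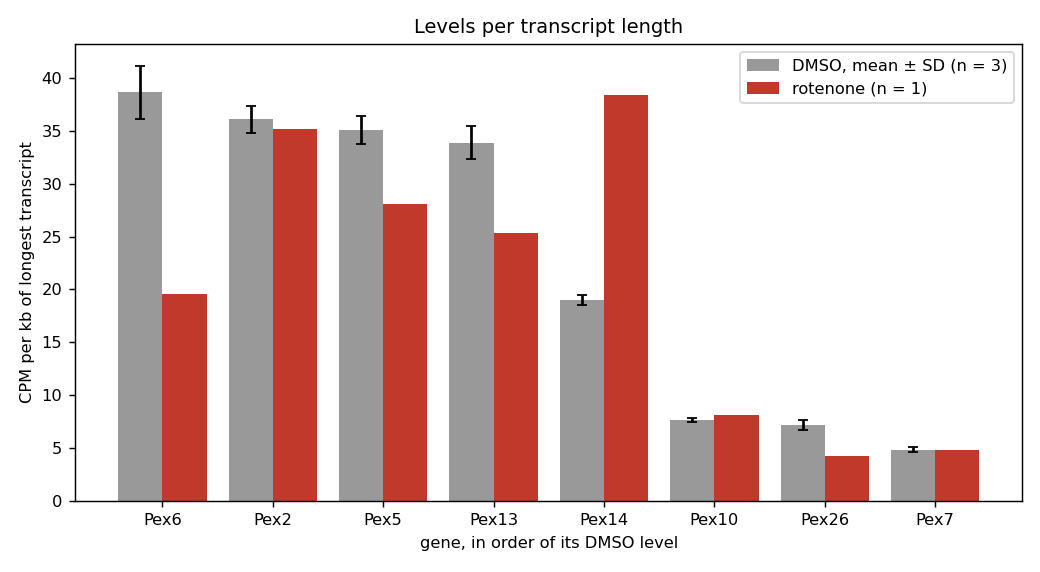
CPM per kb of the longest annotated transcript for each import gene, in the order of the DMSO level. Grey bars are the DMSO mean with bars of 1 SD (n = 3) and red bars the rotenone library (n = 1). Pex6 (38.7) and Pex14 (19.0) in DMSO stand at 19.5 and 38.4 with rotenone.

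The genes with the most similar levels across the 4 libraries were found by the root mean square difference in log2(CPM + 1). For Pex14 they were Cnn3 (0.048), Dpf2 (0.052) and Apex1 (0.058), and for Pex6 they were Tob1 (0.046), Kdm2a (0.060) and Tgfbr2 (0.063). With 4 libraries this likeness describes a shared level and a shared difference between rotenone and DMSO.

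Further genes of the receptor cycle also moved in both directions. Of 9 listed, 8 were tested, and 2 rose and 3 fell, with a median log2 fold change of -0.09. Over all genes tested, 27.6% were called higher and 28.5% lower. With the length and GC offsets 3 of these genes rose and 1 fell, and 0 rose and 1 fell if the coefficient of variation is set to 20%. Usp9x, a deubiquitinase that acts on PEX5, gave -0.43 ± 0.07 and lost its call with the length and GC offsets (-0.15 ± 0.06). Zfand6, a cofactor of PEX6 in receptor export, rose by 0.40 ± 0.08, and Ube2d3, a ubiquitin-conjugating enzyme for PEX5, rose by 0.28 ± 0.07, a call lost with scaling by library size only. The PEX5-related gene Pex5l had 0 counts in every library.

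Among the cargo of the receptors more genes fell than rose. Of 40 enzymes listed as PTS1 cargo, 33 were tested, and 2 rose and 13 fell, with a median of -0.10; with a coefficient of variation of 20% assumed 0 rose and 5 fell. The 18 others did not pass the threshold. Over all genes tested, 27.6% were called higher and 28.5% lower (56.1% in all), and 9.57% and 14.0% at the 20% setting. Ehhadh, which encodes a bifunctional enzyme that shortens fatty acids in peroxisomes, was at 26.7 to 32.2 CPM in DMSO and 5.76 CPM with rotenone. Hacl1, which splits 2-hydroxy fatty acyl-CoAs, fell by 1.38 ± 0.10 on the log2 scale and Idh1, an NADPH-producing dehydrogenase of cytosol and peroxisomes, fell by 1.23 ± 0.08. Nudt12, a hydrolase of NADH and related nucleotides, fell by 1.06 ± 0.12. The 2 that rose were Amacr, a racemase of branched-chain acyl-CoAs, by 0.34 ± 0.09, and Acot8, an acyl-CoA thioesterase, by 0.36 ± 0.14. The call for Acot8 was lost without DMSO replicate 1 or without DMSO replicate 2 (edgeR adjusted p = 0.052 in each), with DESeq2, with scaling by library size only (0.24 ± 0.14) and with the length and GC offsets.

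Of the 4 enzymes listed as PTS2 cargo, 3 fell and none rose, with a median of -0.34. Over all genes tested, 28.5% were called lower and 27.6% higher. At a coefficient of variation of 20% none of the 4 was called. Acaa1b and Acaa1a, thiolases of peroxisomal beta-oxidation, fell by 0.55 ± 0.09 and 0.27 ± 0.07. How reads were split between these near-identical copies is unknown, so each value is uncertain. Agps, an enzyme of ether lipid synthesis, gave -0.42 ± 0.10 and lost its call with the length and GC offsets, and Phyh, the phytanoyl-CoA hydroxylase, gave 0.03 ± 0.07. The PTS2 enzymes thus fell in part while their receptor gene Pex7 stayed inside its DMSO range, and whether cargo and receptor genes differ in response was not tested.

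**Figure D4:**
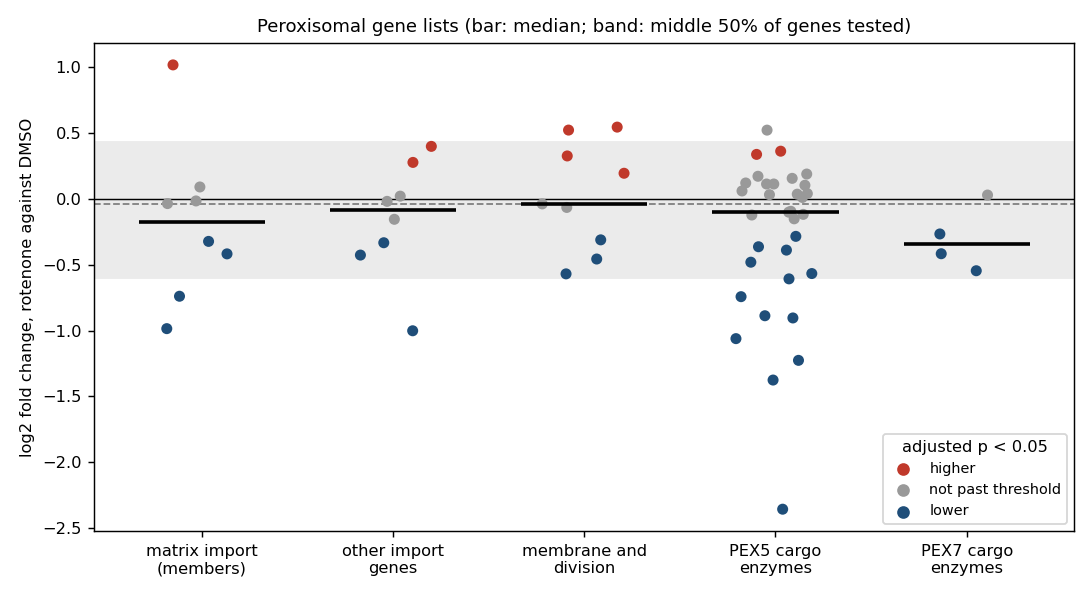
Log2 fold change, rotenone against DMSO, of each tested gene in 5 peroxisomal gene lists, coloured by whether it passed an adjusted p of 0.05 and in which direction. Black bars are list medians, the grey band the middle 50% of genes tested and the dashed line the median of all genes tested (-0.04). The import genes span -0.99 (Pex6) to 1.02 (Pex14), and the lowest point is Ehhadh at -2.36.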

How the data were processed

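RNA-seq counts of 6 deposited files were used (3 DMSO, 3 rotenone). The authors' deposited values are whole-number counts per gene symbol, not normalized. TopHat2 and mm10 are named per the submitters' processing notes; the sources used here do not name the counting program, annotation or strand setting. Counts were identical across the 3 rotenone files, which were therefore used once.

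Counts were filtered with filterByExpr, scaled by TMM and tested with the robust quasi-likelihood F test of edgeR 4.0.16 in R 4.3.3, with 2 residual degrees of freedom and Benjamini-Hochberg adjustment over 14709 genes (threshold 0.05). The SE is the size of the log2 fold change divided by the square root of F. Alternatives used DESeq2 1.42.0, limma 3.58.1 (voom), other scalings, filters and thresholds, and offsets from medians in 8 by 8 bins of transcript length and GC content. Positions and lengths are from GENCODE M21 (GRCm38, the same assembly as mm10) and promoters from RefSeq on GRCm38.p6. Scripts were tested on simulated data.

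The 8 genes and the lists were chosen with earlier results of these data known, and cargo lists are from general knowledge. Named genes are the 8 members, from each other list up to 4 genes past the threshold that changed most, at a mean of at least 1 CPM, and the 3 nearest genes in level to the members with the highest and lowest log2 fold change. Amacr, Acot8, Ube2d3, Phyh, Pex19, Fis1, Dnm1l, Pdgfra, Ly6a, Cd34, Dcn, Col1a1 and the markers at or near 0 counts were named after their values were seen. Some genes chosen by this rule are left out of the text.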

Additional observations from a re-analysis of the deposited data

How the results depend on the processing

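Over 16 alternatives, Pex14 and Pex6 kept their direction and their call in all 16, with log2 fold changes of 0.90 to 1.04 and -1.11 to -0.93. Pex5, Pex13 and Pex26 kept theirs in 14 of 16: the number of import genes called lower was 1 in place of 4 with a coefficient of variation of 20% assumed and again when tested against a 1.5-fold change, and 1 gene was called higher in both. Leaving out each DMSO library in turn gave 4 called lower and 1 higher each time, and Pex7 at -0.054 to 0.017. The sign of Pex7 turned with median-ratio scaling (0.0035), DESeq2 (0.0035), the length and GC offsets (0.17) and without DMSO replicate 1 (0.017), and that of Pex10 with library size scaling (-0.031); neither was past the threshold in any alternative. Library size scaling moved the median over all genes tested from -0.04 to -0.16 (log2) and gave 3245 genes higher and 5153 lower in place of 4054 and 4197. All genes called numbered 1408 higher and 2063 lower at the coefficient of variation of 20%, and 1203 and 1731 against a 1.5-fold change. No paired analysis was possible because the 3 rotenone files are 1 library.

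With 1 rotenone library the spread under rotenone is unknown. With 355 counts in that library, Pex26 has the least depth of the 5 import genes called.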

Other observations

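Peroxins of membrane assembly and division, with the fission factors that peroxisomes share with mitochondria, moved in both directions. Of 9 tested, 4 rose and 3 fell, beside 27.6% called higher and 28.5% called lower over all genes tested. The median log2 fold change was -0.04, the same as over all genes tested. Pex16, a receptor for membrane protein insertion, rose by 0.54 ± 0.08, from 55.6 to 57.8 CPM in the DMSO libraries to 82.2 CPM with rotenone, and Mff, the fission factor that recruits DRP1, rose by 0.52 ± 0.07. Pex11a and Pex11g, which act in peroxisome elongation, fell by 0.57 ± 0.08 and 0.46 ± 0.11, as did Pex19, a chaperone of new membrane proteins, by 0.31 ± 0.07. The fission factors Fis1 and Dnm1l gave 0.32 ± 0.10 and 0.19 ± 0.08; both calls were lost with scaling by library size only, that of Fis1 also with the length and GC offsets (0.03 ± 0.09), and that of Dnm1l also with DESeq2, with limma-voom and without DMSO replicate 2 or 3 (edgeR adjusted p = 0.11 and 0.086). None of the 9 was called with a coefficient of variation of 20% assumed.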
